A study of Homo sapiens with 8 samples.

Results

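The collagen genes were examined for peaks of 2 DNA-binding proteins, Sp1 and CTCF, in U-2 OS, a line derived from a human osteosarcoma. The members are the protein-coding genes on chromosomes 1 to 22 and X whose GENCODE symbol reads COL, a number, A and a number, without the type I chain genes COL1A1 and COL1A2. This gave 42 genes of 19970. The rule used gene names alone and no measured value, but it was chosen with earlier results of these data known. Chromatin immunoprecipitation followed by sequencing (ChIP-seq) recovers the DNA that a protein sits on, and a peak caller then lists the intervals where the recovered DNA exceeds a control. Of the 8 libraries, 4 gave the peak lists scored here, and a further list came from normal rabbit IgG. Sp1 was pulled down from cells with an endogenous knock-in of V5-Halo-SP1, although the sample titles call them parental. Rabbit antibodies MA5-32497 (antibody 1) and PA5-29165 (antibody 2) gave 1 library each. CTCF was pulled down with ab128873 in 2 replicates from clone C32, 1 clone with an endogenous knock-in of FLAG-Halo-CTCF (ATCC CRL-3625), whereas the design text of the series names wild type cells. All cells were fixed for 6 min in 1% formaldehyde. Whether the replicates were separate cultures is not stated, and each Sp1 antibody stands for a single library, so no Sp1 value has a replicate check and no p-value was computed.

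Collagens are secreted proteins of the extracellular matrix in which 3 chains wind into a triple helix. The fibrillar types build the tension-bearing fibrils of bone, skin and tendon, and fibril-associated types decorate them. Type IV collagen forms the sheet of basement membranes, type VI forms beaded filaments near cells, and the transmembrane types stay anchored at the cell surface. Osteoblasts, the lineage that osteosarcoma resembles, are known above all for type I collagen. Sp1 is a zinc finger activator that binds GC boxes in promoters. CTCF is a zinc finger protein with a long recognition sequence that is known for marking the ends of chromatin loops, in genes as well as between them. Levels of RNA were not analysed here, so nothing is said about which collagen genes these cells transcribe.

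Few collagen promoters carried a Sp1 peak. A promoter summit is the highest point of a peak lying within 1 kb of any annotated transcript start of the gene. Antibody 1 had one at 6 of the 42 collagen genes (14.3%), whereas 37.5% of all protein-coding genes had one. Antibody 2 had one at 0 of the 42, against 24.2% of all genes. The IgG list, with 106 peaks, had 0 summits at a collagen promoter or in a collagen gene body. Over all genes it had one at 0.025% of promoters and in 0.0401% of gene bodies. With so few IgG peaks, 0 of 42 says little about the collagen genes. With only the canonical start of each gene counted, antibody 1 kept 5 collagen genes (11.9%, against 34.1% of all genes) and antibody 2 again had 0 (against 21.8%). A gene without a summit is one where no peak passed the authors' threshold in that library, which is not a measurement of zero binding.

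**Figure D1:**
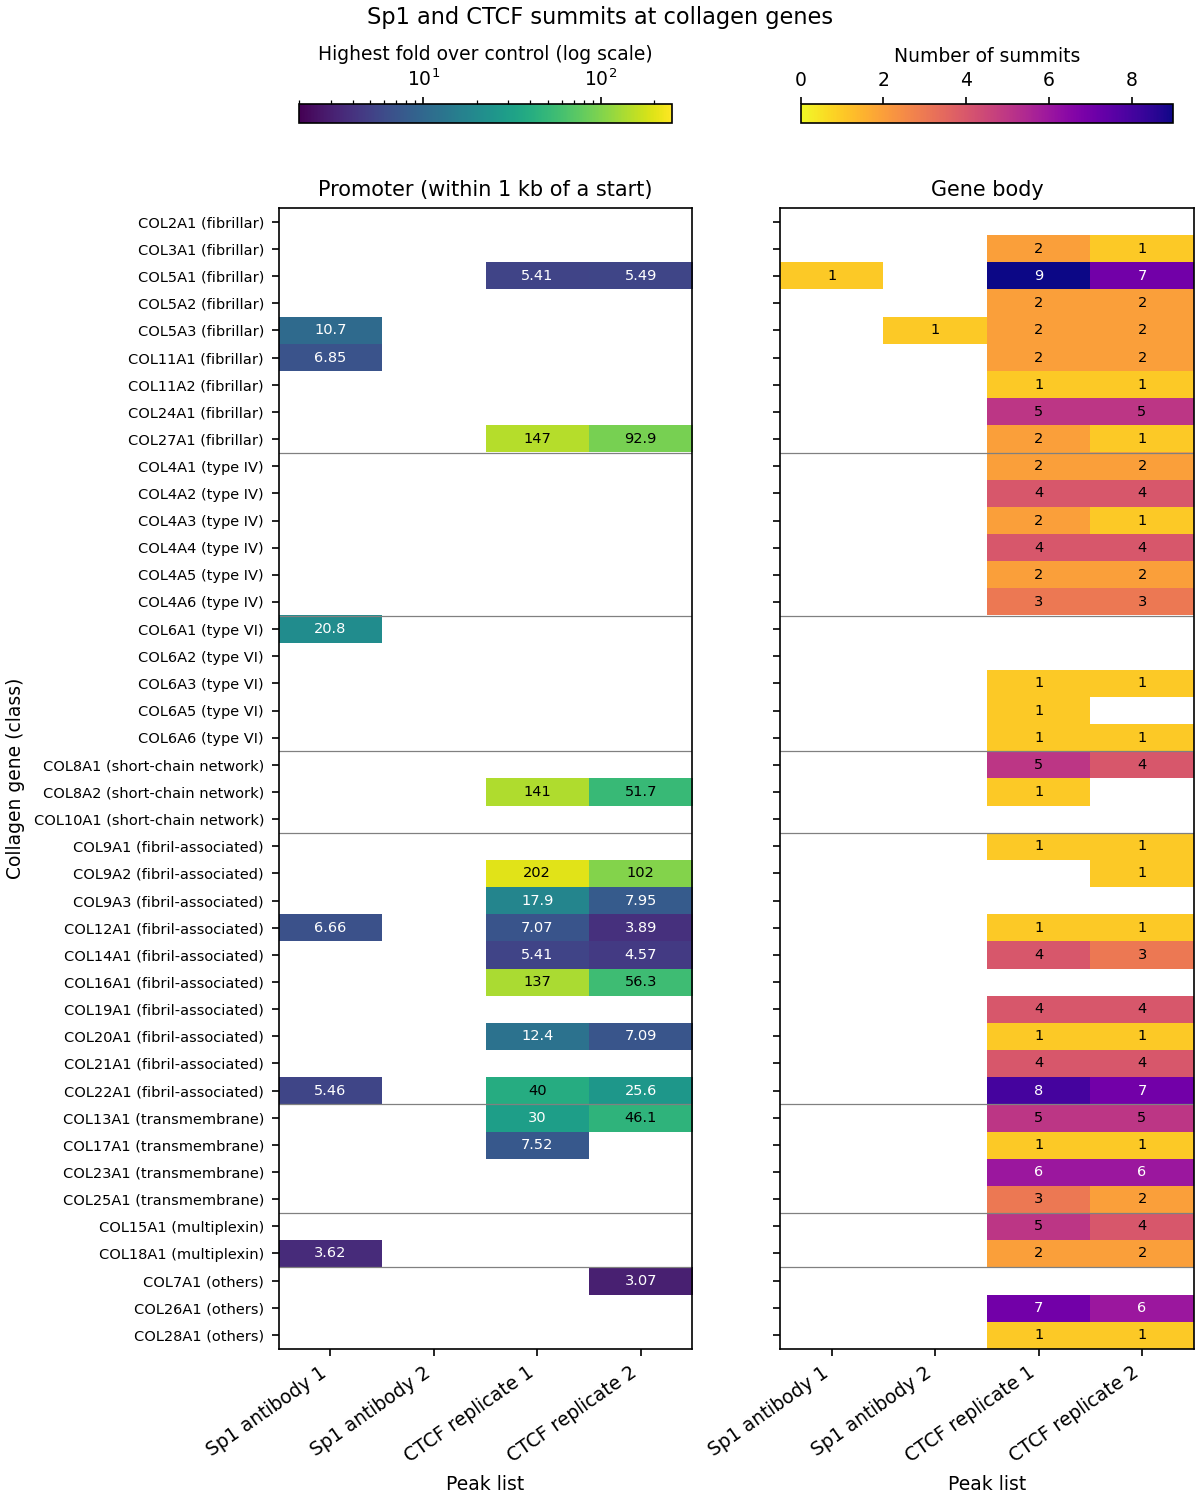
Each row is a collagen gene with its class and each column a peak list. The left panel gives the highest fold over control of the promoter summits (log colour scale) and the right panel the number of gene body summits. White means that no peak was listed. The Sp1 columns are nearly empty, with 6 promoters filled for antibody 1 and 0 for antibody 2, and the CTCF columns fill most gene bodies.

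The strongest Sp1 summit of the family lay at COL6A1, which encodes the alpha-1 chain of type VI collagen. Antibody 1 gave a fold enrichment of 20.8 there, as the authors' peak caller computed it over the control, which placed the peak at the 92.0th percentile of that list. The peak spans chr21:45981401-45981952 (hg38), and its summit lies 62 bp upstream of the canonical start. The nearest antibody 2 summit lay 203 kb from that start. COL6A2, the tandem neighbour 93.1 kb downstream, encodes the partner chain of the same trimer and had no summit in any of the 4 lists. No summit of any list lay between the 2 genes.

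The other antibody 1 promoter summits were weaker. COL5A3, a minor fibrillar chain of type V collagen, had a fold of 10.7 at chr19:10009111-10009779, in an intron 957 bp downstream of the canonical start. COL11A1, the fibrillar alpha-1 chain of cartilage type XI collagen, had a fold of 6.85 at chr1:103108254-103108860, 136 bp upstream of its start. COL12A1, a fibril-associated collagen of tendon and other dense tissues, had a fold of 6.66 at chr6:75205931-75206364, 36 bp upstream. The remaining genes were COL22A1, a fibril-associated collagen of tissue junctions, with a fold of 5.46 at 97 bp upstream, and COL18A1, the precursor of endostatin, with a fold of 3.62. The COL18A1 summit lay 50.7 kb inside the gene at a later transcript start, and its deposited −log10 q was only 1.79. The 6 summits had a median fold of 6.75, compared with 8.40 over the 6604 antibody 1 summits at promoters of all genes.

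The 2 antibodies shared a single collagen site. The antibody 1 peak in COL5A3 overlapped an antibody 2 peak of fold 5.60 at chr19:10009291-10009813. The antibody 2 summit lay 157 bp further into the gene, 1114 bp from the start and thus outside the promoter window, where it counts as a gene body summit. Over all genes, 52.0% of the antibody 1 promoter summits overlapped an antibody 2 peak. One more Sp1 summit lay in a collagen gene body, that of antibody 1 in an intron of COL5A1, 3569 bp from its start, with a fold of 5.03. Gene body summits, which lie between the ends of a gene and outside its own promoter windows, were thus found at 1 collagen gene for each antibody (2.38%), where all genes had 4.78% for antibody 1 and 4.05% for antibody 2.

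The DNA under 4 of the 7 antibody 1 summits at collagen genes is shown beside the GC box, the element GGGCGG or CCGCCC on the other strand. The windows reach 50 bp to either side of the summit on the strand of the gene in hg38, with GC boxes and CCAAT elements (CCAAT or ATTGG) in capitals. Bases in exons of coding transcripts are left out, which shortens the COL12A1 window to 86 bases. They lie at chr21:45981658-45981758 (COL6A1), chr19:10009497-10009597 (COL5A3), chr1:103108608-103108708 (COL11A1) and chr6:75206054-75206139 (COL12A1).
COL6A1: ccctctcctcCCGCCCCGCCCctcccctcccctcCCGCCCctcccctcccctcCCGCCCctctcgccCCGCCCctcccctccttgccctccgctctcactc
COL5A3: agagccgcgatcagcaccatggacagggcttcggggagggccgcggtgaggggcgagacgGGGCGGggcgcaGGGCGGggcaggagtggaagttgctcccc
COL11A1: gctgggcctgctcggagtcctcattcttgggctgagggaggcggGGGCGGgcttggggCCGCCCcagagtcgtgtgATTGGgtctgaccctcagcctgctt
COL12A1: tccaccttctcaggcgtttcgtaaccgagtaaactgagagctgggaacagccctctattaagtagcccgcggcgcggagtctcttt
The COL6A1 window holds 5 GC boxes, 2 of which share a base, in a run of pyrimidines. The COL5A3 window holds 2, and the COL11A1 window holds 2 and a CCAAT element. The COL12A1 window holds 0 of either, as a description of these letters only. Of the 3 sites not shown, the COL22A1 window holds 4 GC boxes, the COL5A1 window 1 and the COL18A1 window 0.

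GC boxes as such were not rare at collagen starts. In the window from 250 bases before to 50 after the canonical start, 27 of 42 collagen genes (64.3%) had at least 1 GC box on either strand, close to the 61.3% of all genes. CCAAT was present in 28.6% and 36.0%, and TATAAA in 14.3% and 9.73%, of collagen and all promoters. The collagen windows had a median GC content of 66.7% and all windows 63.7%, whereas the median ratio of observed to expected CpG was 0.64 in collagen and 0.78 in all windows. Among the 27 collagen genes with a GC box, 5 had an antibody 1 summit within 1 kb of the canonical start (18.5%). Among the 12243 genes of the genome with a GC box the share was 44.2%. The 15 collagen genes without one had 0 summits, and of all genes without one 18.1% had a summit. COL9A3, a chain of type IX collagen, had 12 GC boxes in its window and COL8A2, of the Descemet membrane of the cornea, had 8, and neither had a Sp1 summit within 1 kb of any start. Their nearest antibody 1 summits lay 12.2 and 24.4 kb from the canonical start.

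The distance from the canonical start to the nearest antibody 1 summit had a median of 107 kb over the collagen genes and 28.1 kb over all genes. For antibody 2 the medians were 221 and 66.5 kb. For CTCF they were closer together, at 8.22 kb for collagen and 9.65 kb for all genes in replicate 1, and 9.07 and 13.6 kb in replicate 2. Distances depend on how many peaks a list holds, so they compare collagen with other genes within a list and not 1 list with another.

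**Figure D2:**
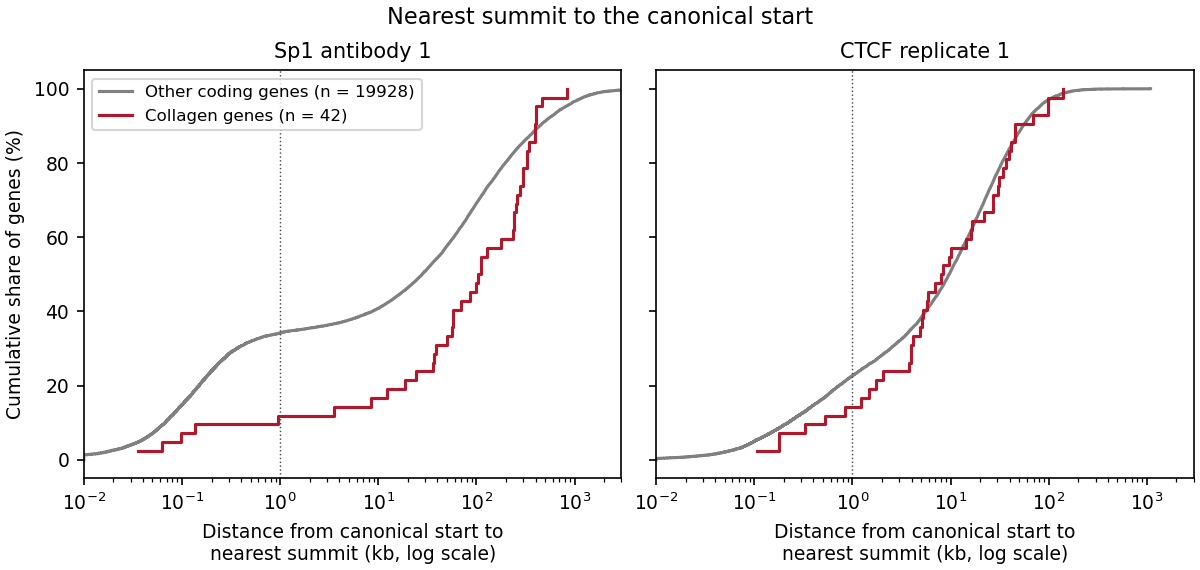
Cumulative share of genes (%) against the distance from the canonical start to the nearest summit (kb, log scale), for Sp1 antibody 1 (left) and CTCF replicate 1 (right). Red is collagen, grey the other coding genes, and the dotted line marks 1 kb. The red curve runs below the grey one for Sp1 until the far right of the panel, and the curves nearly coincide for CTCF beyond a few kb.

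CTCF promoter summits occurred at collagen genes about as often as elsewhere. Replicate 1 had one at 12 of 42 genes (28.6%, against 32.5% of all genes), and replicate 2 also at 12 (28.6%, against 24.9%). Peaks that overlapped between the replicates by at least 1 bp gave 10 genes (23.8%, against 24.3%). Many collagen genes have internal transcript starts, up to 34 annotated positions in COL13A1, and most of these summits lay at such starts. At the canonical start, replicate 1 had a summit at 6 collagen genes (14.3%, against 22.6% of all genes) and replicate 2 at 6 (14.3%, against 16.2%).

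COL27A1, a fibrillar collagen of developing cartilage, had the strongest CTCF peak at a canonical start in both replicates. Its fold was 147 in replicate 1 and 92.9 in replicate 2, and both summits fell on the same base 107 bp upstream, in the peak chr9:114154910-114155716. COL27A1 had a further pair of summits at a minor start 150 kb into the gene, with folds of 69.9 and 42.0. COL22A1 had 40.0 and 25.6 at 529 and 523 bp upstream. COL12A1 had a weak peak of 7.07 and 3.89, whose summits lay 417 bp apart on either side of the start. COL12A1 and COL22A1 were the 2 collagen genes with both a Sp1 and a CTCF promoter summit, and their antibody 1 summits lay 215 and 432 bp from the nearest replicate 1 CTCF summit. The share of all genes with both was not computed, so the count cannot be called high or low. COL5A1, the major type V chain, had 3.68 and 5.49 at about 900 bp downstream, plus a replicate 1 peak of 5.41 at 329 bp upstream that replicate 2 lacked.

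Other promoter summits, of high and of low fold, lay at starts inside the genes. The collagen promoter summits had a median fold of 12.1 in replicate 1 and 7.95 in replicate 2. Over the promoter summits of all genes the medians were higher, at 18.4 and 17.3. COL9A2, a type IX chain of cartilage, had the highest value of all collagen promoters, 202 and 102, at chr1:40315058-40316233. That peak lies 1815 bp downstream of the canonical start, in an intron, beside the start of a transcript without a defined coding sequence. COL8A2 had 141 and 51.7 at 25.4 kb downstream, beside the start of a coding transcript. COL16A1, a fibril-associated collagen, had 137 and 56.3 at 40.0 kb downstream and 11.7 and 5.61 in its exon 32. COL9A3 had 17.9 and 7.95 at 5908 bp downstream. COL20A1 had 12.4 and 7.09 at 2361 bp downstream and 10.6 and 4.96 at 30.3 kb downstream.

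A few promoter calls rested on 1 replicate or on which side of the 1 kb limit a summit fell. COL13A1, a transmembrane collagen, had 4.87 and 4.44 at 841 and 908 bp downstream and 30.0 and 14.2 near an internal start at 99.9 kb. Upstream of COL13A1, the 2 replicates had overlapping peaks of 92.7 and 46.15 whose summits lay 1622 and 644 bp from the canonical start, so that only replicate 2 was counted. COL14A1, a fibril-associated collagen, had its strong peak just beyond the limit, with 165 and 85.6 at 1459 and 1462 bp upstream. It was counted only for a further replicate 2 summit of 4.57 at 684 bp upstream and a replicate 1 summit of 5.41 at an internal start. The replicate 2 peak of 4.57 lies within the interval of the strong replicate 1 peak. COL17A1, the hemidesmosome collagen, had a summit in replicate 1 alone (7.52), and COL7A1, the anchoring fibril collagen of skin, in replicate 2 alone (3.07, 31.2 kb downstream and within 1 kb of a start of UCN2).

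Gene bodies held most of the CTCF summits of the family. Replicate 1 had 104 summits in 34 collagen gene bodies (81.0%, against 40.3% of all genes) and replicate 2 had 92 in 33 (78.6%, against 36.7%). Overlapping peaks gave 88 summits in 32 genes (76.2%, against 36.3%). Collagen genes are long, with a median of 154 kb (17.3 to 494 kb) and a median of 27.5 kb over all genes, so the shares need to be read by length. Of the 12 collagen genes of at least 200 kb, 12 had a shared gene body summit, as did 92.8% of all genes of that length. Between 100 and 200 kb the counts were 13 of 14 (92.9%) for collagen and 72.8% for all genes, between 50 and 100 kb 4 of 5 (80.0%) and 53.6%, and between 20 and 50 kb 3 of 10 (30.0%) and 33.5%. The 1 collagen gene under 20 kb, COL9A2, had 0 shared gene body summits. Mean numbers per gene were 3.83 for collagen and 3.42 for all genes at 200 kb or more, 2.43 and 1.47 between 100 and 200 kb, and 1.0 and 0.83 between 50 and 100 kb. In shorter genes they were lower in collagen, at 0.30 and 0.43 between 20 and 50 kb and 0.0 and 0.13 under 20 kb.

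Per length the collagen genes had a median of 1.12 shared summits per 100 kb of gene body. The median of all genes was 0.0, also among the 14856 genes of at least 10 kb, since most genes had no such summit. Summed over genes, the density was 1.42 per 100 kb in collagen, 1.11 in all genes and 1.10 in those of at least 10 kb. No test was made on these densities.

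**Figure D3:**
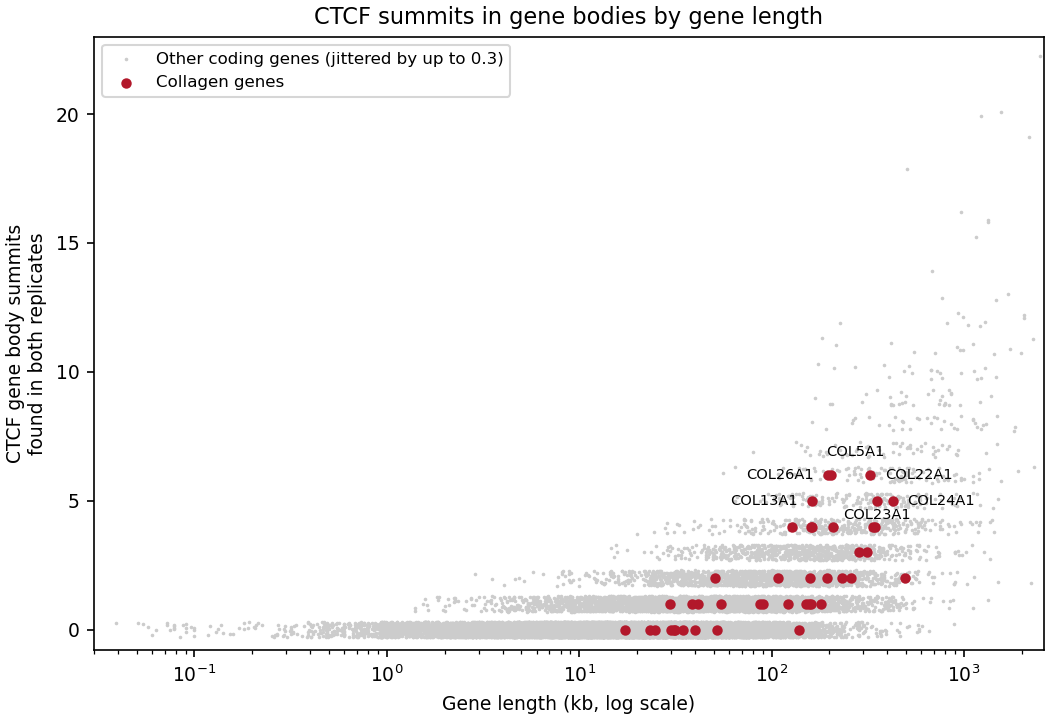
Number of CTCF gene body summits found in both replicates against gene length (kb, log scale). Red points are the 42 collagen genes and grey points the other coding genes, moved up or down by up to 0.3 for display. The collagen points lie among grey points of like length, with 6 summits in COL5A1, COL22A1 and COL26A1.

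The genes with the most shared gene body summits were COL5A1, COL22A1 and COL26A1 with 6 each, followed by COL13A1, COL23A1 and COL24A1 with 5 each. COL26A1, a collagen of developing testis and ovary, had 5 of its 6 summits above a replicate 1 fold of 100 and the sixth at 34.5. The first of them had 139 and 34.8 at 1221 bp from the canonical start, just outside the promoter window. COL5A1 ranged from 5.55 to 113 in replicate 1 and COL24A1, a fibrillar collagen with a gene of 428 kb, from 10.1 to 61.1. The largest member, COL25A1 (494 kb), a neuronal transmembrane collagen, had only 2 shared summits.

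Ranked by the mean log2 fold of both replicates, the 5 strongest shared gene body summits lay in COL22A1, COL15A1 and COL14A1. COL22A1 held 3 of them, with folds of 241 and 116 at 146 kb from the start, 193 and 118 at 186 kb, and 199 and 85.8 at 227 kb. COL15A1, a multiplexin of basement membrane zones, had 204 and 107 in an intron at 31.2 kb (chr9:98974411-98975611). COL14A1 had 165 and 85.6 at 1459 bp upstream of its canonical start and inside the longer annotated gene. All 5 lay at or above the 95.5th percentile of fold in both lists. Of the 88 shared summits, 79 (89.8%) lay in introns of the canonical transcript and 1 in an untranslated exon. The other 8 lay outside that transcript and 0 lay in a coding exon, whereas over all genes 75.5% were intronic and 3.40% in coding exons. Collagen coding exons are short and many, and the covered lengths were not compared.

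Sequences under strong shared CTCF summits are shown to compare sites with and without the 12-base core motif of CTCF, sought on both strands with up to 1 mismatch within 50 bp of the replicate 1 summit. Each is given on the strand of its gene in hg38, with a core in capitals where one was found. Only the core with the fewest mismatches, and then nearest the summit, is marked. Further stretches within the limit, as in the COL27A1 window, are left unmarked.
COL27A1 promoter, chr9:114155380-114155480: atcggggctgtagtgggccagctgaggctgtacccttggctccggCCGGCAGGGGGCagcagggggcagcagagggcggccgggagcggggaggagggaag
COL20A1 gene body, chr20:63309633-63309733: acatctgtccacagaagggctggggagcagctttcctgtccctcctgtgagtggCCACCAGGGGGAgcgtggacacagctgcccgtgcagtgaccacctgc
COL13A1 gene body, chr10:69914803-69914903: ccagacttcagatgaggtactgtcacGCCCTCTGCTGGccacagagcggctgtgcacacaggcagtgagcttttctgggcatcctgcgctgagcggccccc
COL9A2 internal start, chr1:40315421-40315521: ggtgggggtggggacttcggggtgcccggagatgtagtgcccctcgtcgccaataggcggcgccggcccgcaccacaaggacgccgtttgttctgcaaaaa
COL15A1 gene body, chr9:98975032-98975132: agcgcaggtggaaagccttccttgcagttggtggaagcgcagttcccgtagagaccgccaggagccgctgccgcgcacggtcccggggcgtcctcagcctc
COL18A1 gene body, chr21:45439529-45439629: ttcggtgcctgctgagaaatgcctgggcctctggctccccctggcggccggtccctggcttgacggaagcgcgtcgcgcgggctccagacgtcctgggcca
The COL13A1 window, with folds of 137 and 89.8, holds an exact core on the opposite strand. The COL27A1 window and the COL20A1 window, with 159 and 77.7, hold a core with 1 mismatch on the strand of the gene. The COL9A2, COL15A1 and COL18A1 windows (154 and 83.8 for COL18A1) hold none within that limit. Over the 102 shared CTCF summits at collagen genes, 54 (52.9%) had a core, compared with 57.0% of 33936 shared summits on these chromosomes. An exact core stood at 21 (20.6%) and 18.7%. Of the 51 shared gene body summits with a core, 21 had it on the strand of the gene (41.2%, against 49.5% over all genes).

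The 2 CTCF replicates gave nearly the same collagen sites. Of 122 replicate 1 summits at collagen genes, 102 (83.6%) had an overlapping replicate 2 peak, and 79.8% of all replicate 1 peaks had one. The median distance between paired summits was 7.5 bp. Fold was lower in replicate 2 at 101 of the 102, with a median log2 ratio of -0.88 and an SD of 0.45 across sites. COL5A1 at its promoter was the exception. The same shift was present across all 34125 overlapping peaks (median -0.89, SD 0.46), so it was not particular to the family. Across the 102 sites the folds had a Pearson r of 0.96 on the log2 scale and a Spearman rho of 0.95, as a description, since the sites share both libraries. The 20 replicate 1 summits without a partner had a median fold of 5.39 and at most 10.4, compared with a median of 47.1 for those with one. The 4 replicate 2 summits without a partner had at most 3.07.

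**Figure D4:**
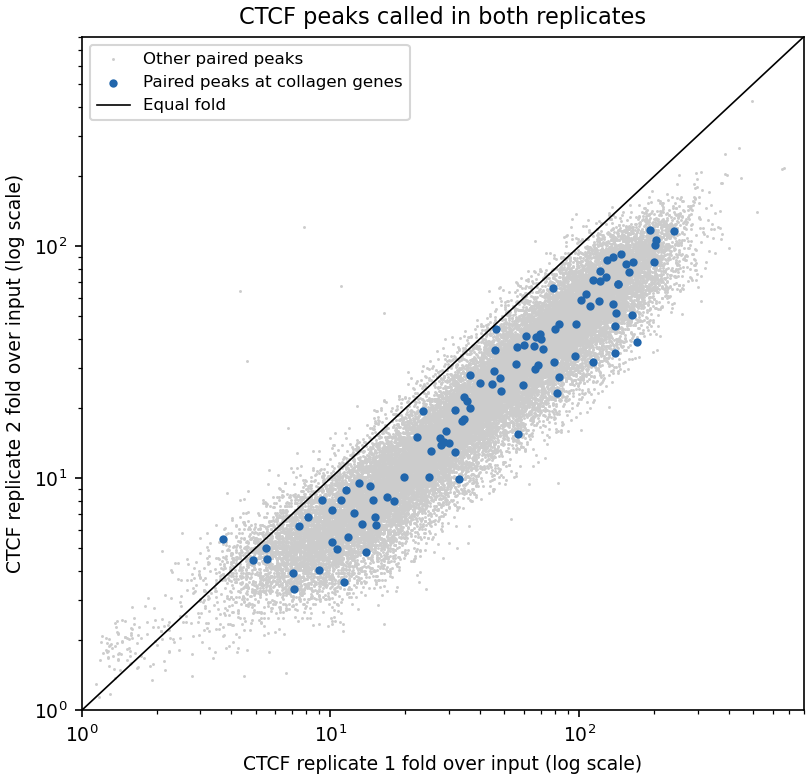
Fold over input in CTCF replicate 2 against replicate 1 (both log scales) for peaks that overlap between the replicates. Blue points are the 102 sites at collagen genes, grey points the other peaks, and the line marks equal fold. Of the blue points, 101 lie under the line.

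The type IV genes stand in head-to-head pairs whose starts share a short stretch of DNA. COL4A1 and COL4A2, the chains of the most widespread basement membrane network, have canonical starts with 126 bases between them on chromosome 13. COL4A4 and COL4A3, chains of the kidney filter, have 418 bases between the canonical starts and 170 between the nearest starts on chromosome 2. COL4A6 and COL4A5 on the X chromosome have 1415 bases between canonical starts, more than 1 kb, but only 340 between the nearest annotated starts. These 3 pairs were the only collagen genes that start within 5 kb of each other on opposite strands. None of the 4 lists had a promoter summit at any of the 6 genes. Among all 984 head-to-head pairs of coding genes with canonical starts within 1 kb, 73.6% had an antibody 1 summit between 1 kb outside the 2 starts and 18.9% a shared CTCF summit. The COL4A6 and COL4A5 pair does not meet that limit, and no such share was computed for antibody 2.

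The stretches between the starts are shown on the plus strand of hg38, with GC boxes and CCAAT elements in capitals. They lie at chr13:110307158-110307257 (COL4A1 and COL4A2, without 26 bases that belong to an exon), chr2:227164454-227164623 (COL4A4 and COL4A3) and chrX:108439518-108439817 (COL4A6 and COL4A5, the middle 300 bases).
COL4A1 and COL4A2: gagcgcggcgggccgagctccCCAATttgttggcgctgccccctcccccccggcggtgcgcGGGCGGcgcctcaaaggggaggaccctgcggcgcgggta
COL4A4 and COL4A3: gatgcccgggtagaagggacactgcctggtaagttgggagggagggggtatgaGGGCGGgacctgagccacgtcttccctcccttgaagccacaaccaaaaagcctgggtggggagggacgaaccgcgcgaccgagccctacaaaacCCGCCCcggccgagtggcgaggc
COL4A6 and COL4A5: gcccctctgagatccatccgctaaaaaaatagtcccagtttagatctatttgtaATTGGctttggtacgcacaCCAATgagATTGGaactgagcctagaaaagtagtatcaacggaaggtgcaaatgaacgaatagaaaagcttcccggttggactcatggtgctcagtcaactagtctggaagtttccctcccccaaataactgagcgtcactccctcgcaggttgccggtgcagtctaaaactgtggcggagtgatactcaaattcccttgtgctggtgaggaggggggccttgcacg
The COL4A1 and COL4A2 stretch holds 1 GC box and 1 CCAAT element and is 78.0% GC. The COL4A4 and COL4A3 stretch holds 2 GC boxes and no CCAAT at 65.9% GC. The COL4A6 and COL4A5 stretch holds 3 CCAAT elements and no GC box at 49.0% GC. No Sp1 summit lay near any of them. From the start of COL4A1 the nearest antibody 1 summit was 399 kb away and the nearest antibody 2 summit 212 kb, from that of COL4A3 328 and 504 kb, and from that of COL4A5 297 and 1097 kb.

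CTCF was present further inside each type IV gene, with 16 shared gene body summits over the 6 genes, all of them in introns. These genes span 150 to 284 kb. Over all genes, 72.8% of those of 100 to 200 kb and 92.8% of those of at least 200 kb had such a summit. The mean numbers were 1.47 and 3.42 per gene, and 75.5% of the shared gene body summits of all genes were intronic. In COL4A1 the summits lay at 84.8 kb (128 and 73.5) and 59.5 kb (13.9 and 4.79) from its start. In COL4A2 there were 4, the nearest at 16.3 kb (10.1 and 7.32) and the strongest at 149 kb (66.8 and 40.5). COL4A3 had 1 shared summit, at 73.8 kb (143 and 68.7), and COL4A4 had 4, from 11.3 and 3.58 at 38.5 kb to 139 and 45.5 at 34.2 kb. COL4A5 had 2, of 27.8 and 13.9 at 97.4 kb and 8.97 and 4.04 at 145 kb. COL4A6 had 3, all 214 kb or more from its start, the strongest with 34.4 and 22.5. The distances from the start to the first shared summit thus ran from 16.3 kb in COL4A2 to 214 kb in COL4A6. The strongest summit of the X-linked pair was weaker than the strongest of either other pair, with no replicate 1 fold above 34.4. The weakest shared summit in replicate 2 was the one of 3.58 in COL4A4.

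**Figure D5:**
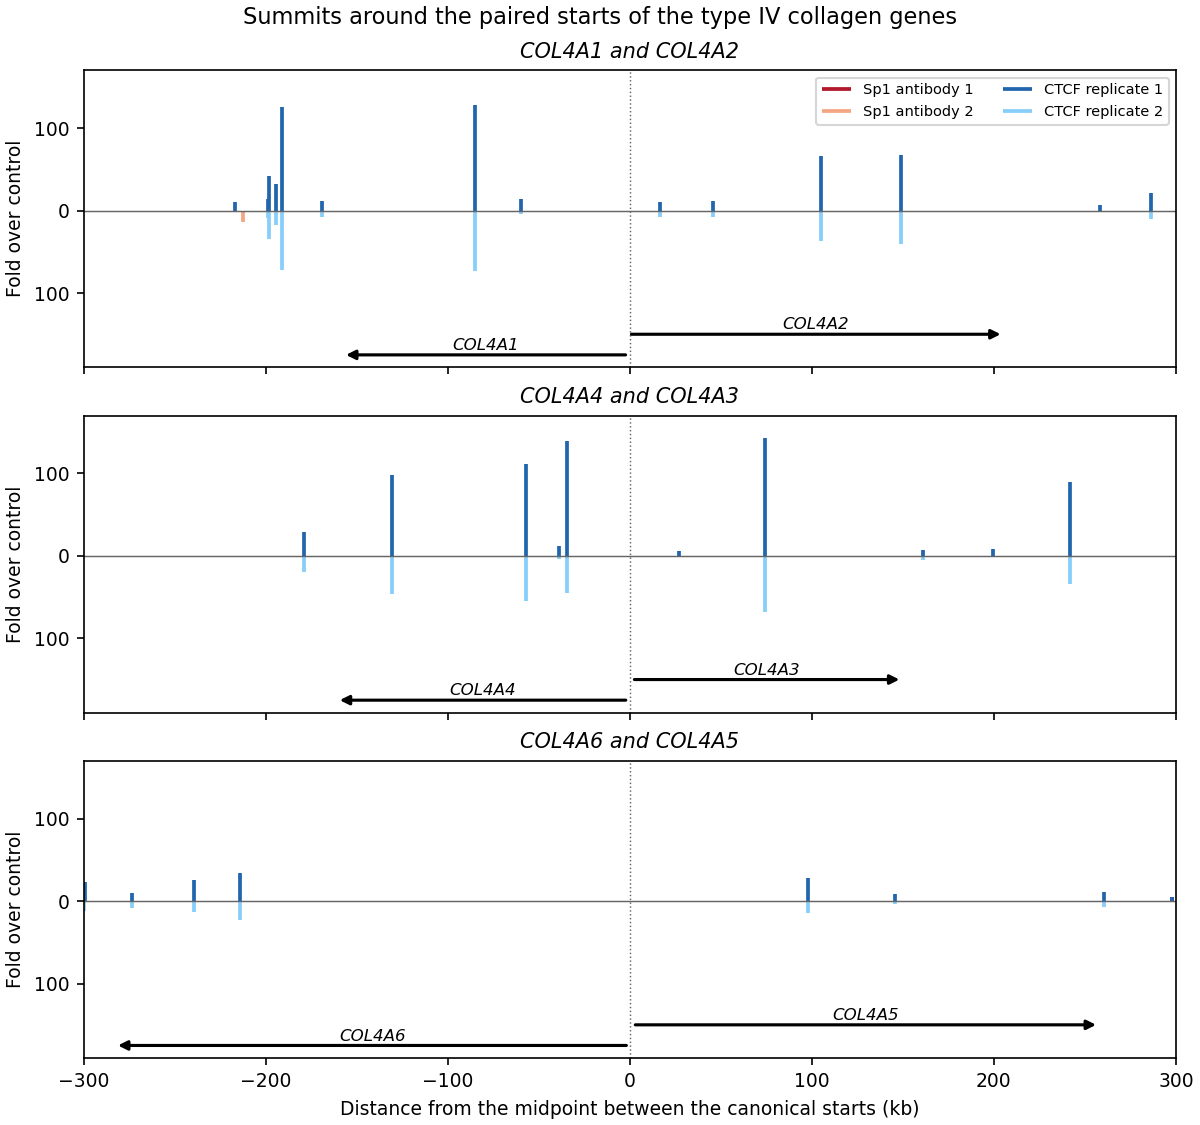
Summits within 300 kb of the midpoint between the canonical starts of the 3 type IV pairs, by distance (kb). Line length is fold over control, upward for CTCF replicate 1 and Sp1 antibody 1 and downward for CTCF replicate 2 and Sp1 antibody 2, and arrows show the genes. No line stands at the midpoint in any pair, and CTCF lines stand at like positions in both replicates inside each gene, apart from 1 weak replicate 1 summit in COL4A3 (5.50 at 26.9 kb).

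By class, antibody 1 promoter summits were found at 2 of 9 fibrillar, 0 of 6 type IV, 1 of 5 type VI, 0 of 3 short-chain network, 2 of 10 fibril-associated, 0 of 4 transmembrane and 1 of 2 multiplexin genes, and at 0 of the 3 others, where 37.5% of all genes had one. Shared CTCF promoter summits, present at 24.3% of all genes, were found at 6 of 10 fibril-associated and 2 of 9 fibrillar genes. The short-chain network and transmembrane classes had 1 such gene each. Of the 6, COL9A2, COL9A3, COL16A1 and COL20A1 had shared summits at internal starts only. They have 12, 14, 17 and 8 annotated starts, and each start adds a window that can hold a summit. Shared gene body summits were found at 8 of 9 fibrillar, 6 of 6 type IV and 4 of 4 transmembrane genes, where 36.3% of all genes had one. The median gene length of these 3 classes was 157, 185 and 258 kb, so their counts are to be read by length as above. In the type VI class they were found at 2 of 5, in COL6A3 (31.7 and 12.9 at 3920 bp) and COL6A6 (70.2 and 40.0 at 22.1 kb). With 2 to 10 genes a class, no class was compared with another.

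The 3 genes COL2A1, COL6A2 and COL10A1, had no summit in any of the 4 lists. COL2A1 and COL10A1 encode the hallmark collagens of cartilage and of hypertrophic cartilage. A shared CTCF summit was lacking at 6 genes, these and COL6A1, COL6A5 and COL7A1. Over all genes, 24.3% had a shared CTCF promoter summit and 36.3% a shared gene body summit. The shares of all genes lacking both, or lacking a summit in every list, were not computed, and collagen genes are longer than most. Among members within 100 kb of each other, COL3A1 and COL5A2, chains that assemble into the same heterotypic fibrils, lie tail-to-tail 19.2 kb apart with 1 shared CTCF summit between them (13.9 and 8.40). COL19A1 and COL9A1 are tail-to-tail at 3.57 kb and COL6A5 and COL6A6 in tandem at 32.3 kb, with 0 summits between them.

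Genes whose products fold, export, process or bind collagen, or build the rest of the basement membrane, were scored in the same way. Of 57 such genes, antibody 1 had a summit at 16 (28.1%, against 37.5% of all genes), antibody 2 at 9 (15.8%, against 24.2%) and both CTCF replicates at 25 (43.9%, against 24.3%). The group counts that follow are small and are read against these same shares. In the folding and modification group, antibody 1 had a summit at 8 of 17, among them P4HB (20.1; antibody 2, 12.8), the disulfide isomerase subunit of prolyl hydroxylase, and PLOD3 (8.18; antibody 2, 5.45), a lysyl hydroxylase. SERPINH1, the collagen chaperone, had none of Sp1 and CTCF folds of 11.8 and 5.71. In the export group, each Sp1 antibody had a summit at 3 of 5 genes, among them MIA3, the cargo receptor for procollagen (9.89 and 6.94). Among 13 processing and crosslinking genes, antibody 1 had 2 and antibody 2 had 3, and LOXL3 had both (10.7 and 4.69). LOX, the crosslinking lysyl oxidase, had 3.84 with antibody 2 alone and CTCF folds of 95.5 and 74.3. Of the 15 other basement membrane genes, 1 had a summit for antibody 1 (LAMB2, 5.64), 0 had one for antibody 2 and 7 had a shared CTCF promoter summit. Of 7 receptor genes, 2 had a summit for antibody 1, ITGA1 (4.85) and ITGB1, the beta-1 integrin (6.47). Antibody 2 had one at ITGB1 alone (7.08). The list was not tested against the collagen genes.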

How the data were processed

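The authors trimmed reads, aligned them to hg38, removed duplicates and called peaks per library. The submitters' processing notes name cutadapt 2.6, Bowtie2 2.4.5, SAMtools 1.15.1 and MACS2 2.2.7.1, and the methods of the study give partly other versions. Each deposited list holds a peak's interval, its summit, its fold over the control, a linear ratio computed by the authors' caller, and the deposited −log10 p and −log10 q. The lists hold no read counts, and the read numbers given by the study were not used here, so no counting interval is given. The lowest −log10 q was between 1.30 and 1.43, so every list ends near the same q-value. All 93632 peaks lay within hg38 contigs. Input libraries have no peak list used here.

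Starts and gene ends came from GENCODE release 44. Summits within 1 kb of any start were promoter summits, and summits between the gene ends but outside these windows were gene body summits. Peaks were paired between lists by an overlap of at least 1 bp, taking the partner of highest fold. Motifs were sought on both strands in hg38. The scoring was checked on simulated data. Python 3.11.15, pandas 2.3.3 and pysam 0.24.0 were used. Members, classes, lists and named sites were chosen with earlier results of these data known. Named were members with a promoter summit, head-to-head pairs, the members with the most shared CTCF gene body summits, the 5 strongest of these summits and the Sp1 gene body summits. Alternatives changed the window, starts, threshold, overlap, motif and replicate. With 1 library per Sp1 antibody no test was made.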

Additional observations from a re-analysis of the deposited data

How the results depend on the processing

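Of 60 alternative settings, 48 left the count or density within 1.5 times its main value. A promoter window of 5 kb raised the collagen genes with a CTCF summit to 22 in replicate 1 (52.4%, against 51.7% of all genes), 21 in replicate 2 (50.0%, against 44.0%) and 20 in both, and gave 1 gene for Sp1 antibody 2 in place of 0 (2.38%, against 27.1%). That gene also appeared when any part of a peak could lie in the window (1 gene). A window of 500 bp lowered replicate 2 to 7 genes (16.7%, against 19.0%). Counting the canonical start only lowered CTCF to 6 genes in replicate 1 (14.3%, against 22.6% of all genes). Replicate 2 then had 6 (14.3%, against 16.2%) and both together 5. Gene bodies taken with their promoter windows held an antibody 1 summit at 5 genes in place of 1. The Sp1 site shared by both antibodies was lost when summits had to lie within 100 bp (0 sites). An exact CTCF core was present at 21 shared summits in place of 54. Using either CTCF replicate alone gave 37 genes with a CTCF summit, where both together gave 36. For the gene counts of this paragraph that stand without a share of all genes, that share was not computed. No paired analysis was possible because the Sp1 libraries have no replicate and the CTCF replicate numbers recur only in input libraries without a peak list. A gene absent from a list was not detected at the threshold and depth of that library, and the lists cannot tell weak binding from none.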
